A study of Rattus norvegicus with 9 samples.

Results

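The ubiquitin-conjugating (E2) enzymes were followed in rat blood. They were taken as every gene of the array whose symbol starts with Ube2, each represented by its brightest transcript cluster, the set of probes that stands for 1 transcript. This gave 29 genes of the 18166 tested. Another 4 clusters carry a Ube2 symbol together with other symbols and were left out, so Ube2d2, Ube2d3 and Ube2v1 have no value here. All animals were male Sprague-Dawley rats, and RNA came from blood of the abdominal aorta at 24 h of reperfusion. The control group had sham surgery. Both other groups had middle cerebral artery occlusion (MCAO), a stroke model in which the artery is blocked and then reopened. Before it, QDBS (Qi deficiency blood stasis) rats swam to exhaustion once a day for 21 days, and YDBS (Yin deficiency blood stasis) rats received hydrocortisone at 45 mg/kg once a day for 13 days, followed by 1 day of epinephrine (0.36 mg/kg). Each group had 3 arrays, 1 per rat. No group had MCAO without a pretreatment or a pretreatment without MCAO, so the pretreatment and the stroke cannot be told apart.

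Ubiquitin reaches its targets through a chain of enzymes. An E1 enzyme activates it, an E2 enzyme carries it on a cysteine, and an E3 ligase brings the loaded E2 to the protein to be marked. The E2 has a large part in setting which kind of chain is built, and with it whether the target goes to the proteasome or serves as a signalling platform. Some E2 enzymes carry relatives of ubiquitin instead, such as NEDD8 or ISG15. In blood the pathway is known for switching on inflammatory signalling in leukocytes and for clearing ribosomes and other proteins from maturing red cells.

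Values are log2 signals, so a difference of 1 is a 2-fold change. A gene was called higher or lower when limma gave a Benjamini-Hochberg FDR under 0.05 over all 18166 genes and an absolute log2 fold change (log2 FC) over 1, and only called genes are said to have risen or fallen. A signal also reflects the probes of its cluster, so levels of different genes are given as a description only. The mean levels of the 29 E2 genes over 9 arrays had a median of 6.43, against 4.47 for all genes, and 5 of them lay among the dimmest 40% of genes. The lowest was Ube2q2l, a copy of Ube2q2, at 2.25, 1.95 and 2.48 on the control arrays, 2.13, 2.23 and 2.30 in QDBS and 2.25, 2.25 and 2.22 in YDBS. The highest was Ube2o, at a mean of 9.06.

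In QDBS against control 4 E2 genes were called higher by their brightest cluster (Ube2q2, Ube2v2, Ube2e2 and Ube2g1), 2 fell (Ube2c and Ube2o), and 23 were not called. In YDBS against control 5 were called higher, the same 4 and Ube2a, and none fell, though 6 were lower at an unadjusted limma p under 0.05. The share of all genes at that unadjusted limit was not computed. The two-group test of the paper's methods called none lower in YDBS either. In both models the call of Ube2e2 holds for 1 of its 2 clusters, and the other cluster lay below control. The cluster used was the dimmer one in control and became the brighter one through the model arrays. Its choice was thus not independent of the change, and the shares called higher given next count it. When a gene's clusters were averaged, 3 E2 genes were called higher in QDBS and 4 in YDBS, beside 1741 and 1885 of all genes. The 4 called higher in QDBS are 13.8% of the E2 genes, where 9.62% of all genes were called higher, and the 2 called lower are 6.90%, where the share of all genes was 1.36%. In YDBS the 5 are 17.2% against 10.4% of all genes, and 0.919% of all genes were called lower. Each count lies within a few genes of what the background share gives for 29 genes. By the FDR alone 10 E2 genes were higher and 5 lower in QDBS (20% and 22.9% of all genes), and 11 were higher and 6 lower in YDBS (20.5% and 25.3%). For 14 E2 genes every QDBS array exceeded every control array (22.8% of all genes), and for 5 every QDBS array was lower (31.3%), with 11 (23.4%) and 5 (33.3%) for YDBS. The median log2 FC of the E2 genes was 0.11 in QDBS, where the median over all genes was -0.15, and 0.22 in YDBS, where it was -0.16. Single genes ranged from -1.52 to 1.96 in QDBS and from -0.94 to 2.24 in YDBS. Both comparisons use the same control arrays, so their values are given side by side and are not independent of each other. Blood is a mixture of cells, and fewer cells of a type and less RNA per cell cannot be told apart in these arrays.

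**Figure D1:**
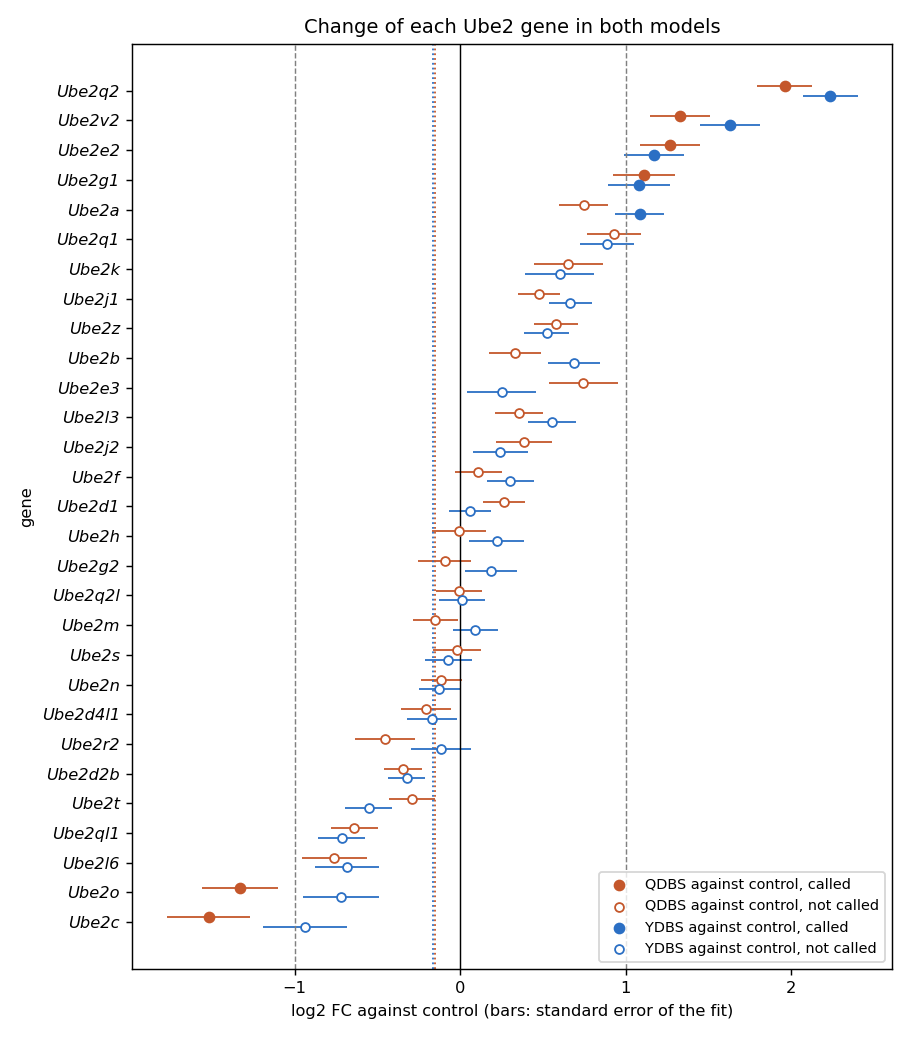
Log2 FC of each of the 29 E2 genes in QDBS and in YDBS against control, with bars for the standard error of the limma fit. Filled points are called genes, dashed lines mark a log2 FC of -1 and 1, and dotted lines mark the medians over all genes, -0.15 and -0.16. Ube2q2 stands highest in both models, and Ube2c and Ube2o are the only filled points on the left, both in QDBS.

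These counts depended on scaling and on 1 control array. After quantile normalization of the deposited values the split of higher to lower calls was 2 to 3 in QDBS and 2 to 1 in YDBS, after cyclic loess it was 2 to 2 and 3 to 1, and with each array centred on its 75th percentile it was 3 to 2 and 2 to 1. Without control replicate 2, on which the E2 genes had the lowest mean level of all arrays (5.84 against 6.05 to 6.37 on the others), the YDBS split was 2 to 1. Calls over all genes moved too. As deposited they were 1747 higher and 247 lower in QDBS and 1892 and 167 in YDBS. After quantile normalization they were 1492 and 400 in QDBS and 1591 and 299 in YDBS. After loess they were 1522 and 292 in QDBS and 1719 and 169 in YDBS. With the 75th percentile they were 1254 and 618 in QDBS and 1415 and 550 in YDBS. Without control replicate 2 those of YDBS were 1549 and 144. The median log2 FC relative to all genes, 0.26 in QDBS and 0.38 in YDBS, was 0.0911 and 0.0529 after quantile normalization, 0.0544 and 0.0667 after loess and 0.11 and 0.26 without control replicate 2. With the dimmest 40% of genes left out it was 0.22 and 0.18. Of the 24 E2 genes then left, 3 were called higher in QDBS (4 before) and 4 in YDBS (5 before). Over all genes the counts hardly moved, to 1714 (1747 before) and 1848 (1892 before). The share of all genes called higher is therefore larger once the dim genes are left out. Most E2 genes are not dim, so their larger shares given above cannot be read as particular to them. A comparison with genes of like level was not made.

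The promoters of the E2 genes were read from RefSeq (rat build GRCr8) as windows from 250 bases before to 50 bases after a gene start, and 25 of the 29 genes had 1 or more, 26 windows in all. Ube2c, Ube2o, Ube2r2 and Ube2v2 had none. Motifs were searched on both strands by their letters. A GC box, GGGCGG, the site of Sp1-type factors, was found in 18 of the 26 windows (69.2%), where 33.1% of all 33465 windows hold one. A site of ETS factors, CCGGAAG, was found in 26.9% (8.75% of all), one of NRF1 in 11.5% (4.26%), a CCAAT box, CCAAT, in 30.8% (37.5%), and a TATA box, TATAAA, in 7.69% (14.2%). The cell cycle element CHR, TTTGAA, was found in 7.69% (18.3%), an E2F site, TTCCCGCC, in 3.85% (1.91%), a GATA site, AGATAA, in 3.85% (11.6%), and the core of the interferon-stimulated response element in none (3.92%). A GC-rich window holds GC boxes more often, and a match is a description of the letters, not a site in use. The windows of 3 genes that rose in YDBS are shown beside that of Ube2l6, an E2 whose values in both models were below control. They lie at chr8:64414824-64415123 (Ube2q2), chr10:57724258-57724557 (Ube2g1), chrX:120979834-120980133 (Ube2a) and chr3:90279455-90279754 (Ube2l6), all on the plus strand. Capitals mark GC boxes and CCAAT boxes read on either strand and the NRF1 site:
Ube2q2: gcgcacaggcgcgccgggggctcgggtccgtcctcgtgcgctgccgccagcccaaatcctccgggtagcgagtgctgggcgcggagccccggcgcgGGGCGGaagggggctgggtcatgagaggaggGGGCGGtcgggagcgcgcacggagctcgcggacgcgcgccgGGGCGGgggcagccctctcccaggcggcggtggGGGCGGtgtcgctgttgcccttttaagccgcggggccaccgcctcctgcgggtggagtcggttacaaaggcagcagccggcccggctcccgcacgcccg
Ube2g1: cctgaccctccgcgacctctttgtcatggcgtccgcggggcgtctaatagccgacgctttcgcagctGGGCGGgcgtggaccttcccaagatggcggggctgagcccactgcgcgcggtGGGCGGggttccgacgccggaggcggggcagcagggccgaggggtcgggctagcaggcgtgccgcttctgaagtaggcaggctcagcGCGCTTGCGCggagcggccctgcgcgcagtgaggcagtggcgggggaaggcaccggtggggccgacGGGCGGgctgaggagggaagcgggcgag
Ube2a: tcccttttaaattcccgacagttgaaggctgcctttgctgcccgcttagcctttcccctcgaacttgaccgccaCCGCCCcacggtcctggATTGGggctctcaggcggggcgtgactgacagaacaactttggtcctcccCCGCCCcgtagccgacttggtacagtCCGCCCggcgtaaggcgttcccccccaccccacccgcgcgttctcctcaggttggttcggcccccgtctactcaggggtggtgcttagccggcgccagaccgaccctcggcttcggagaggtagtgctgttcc
Ube2l6: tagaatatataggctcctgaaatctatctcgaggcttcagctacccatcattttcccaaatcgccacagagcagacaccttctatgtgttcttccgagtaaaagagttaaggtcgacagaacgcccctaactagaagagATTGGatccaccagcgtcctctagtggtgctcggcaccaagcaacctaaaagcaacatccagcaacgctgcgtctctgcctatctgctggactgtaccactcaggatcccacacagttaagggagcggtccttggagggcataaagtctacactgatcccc
The Ube2q2 window has 4 GC boxes and a GC content of 77.7%. That of Ube2g1 has 3 and an NRF1 site (73.7%), and that of Ube2a has 3 and a CCAAT box (64.7%). The Ube2l6 window has a CCAAT box, no GC box and a GC content of 50%, where the median of all windows is 51.7%. The windows shown are picked examples and do not stand for a direction of change. Ube2ql1, with values below control in both models, has 2 GC boxes and a GC content of 69.3%. Ube2l3, with values above control in both, has no GC box and a GC content of 47.7%.

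Among the Q family, E2 enzymes with a long N-terminal extension, Ube2q2 rose in both models. Its signal was 4.25, 3.84 and 4.35 on the control arrays, 6.19, 5.91 and 6.22 in QDBS and 6.50, 6.50 and 6.15 in YDBS. Every model array lay more than 1 above every control array. The log2 FC was 1.96 ± 0.17 (SE) in QDBS (FC 3.89, FDR = 1.25e-05 by limma) and 2.24 ± 0.17 in YDBS (FC 4.71, FDR = 5.09e-06). Its relative Ube2q1 was at 7.79, 7.26 and 7.73 in control, 8.32, 8.75 and 8.50 in QDBS and 8.42, 8.47 and 8.55 in YDBS. Its groups did not overlap control either, but its log2 FC of 0.93 (FDR = 0.00128) and 0.89 (FDR = 0.00155) stayed short of 1. Ube2ql1, the other relative, differed in the other direction, at 4.69, 5.11 and 5.20 in control, 4.27, 4.45 and 4.36 in QDBS and 4.21, 4.30 and 4.33 in YDBS. All 6 model arrays lay below the control arrays, with log2 FC of -0.64 (FDR = 0.00494) and -0.72 (FDR = 0.00244), and it was not called.

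Ube2v2 and Ube2n work as a pair. Ube2n carries the ubiquitin and Ube2v2, which lacks the catalytic cysteine, orients the acceptor so that Lys63 chains, the type used in NF-κB signalling and DNA repair, are built. Ube2v2 rose in both models, from 2.55, 2.46 and 2.62 in control to 4.11, 3.67 and 3.83 in QDBS and 3.74, 4.39 and 4.39 in YDBS. The groups were apart by more than 1, although the control values lay near the bottom of the array's range. No background level comes with these values, so the fold is that of the signals and may understate the change. The log2 FC was 1.33 ± 0.18 in QDBS (FC 2.51, FDR = 0.000279) and 1.63 ± 0.18 in YDBS (FC 3.09, FDR = 6.35e-05). Ube2n was at 5.75, 5.99 and 5.58 in control, 5.63, 5.63 and 5.72 in QDBS and 5.63, 5.63 and 5.68 in YDBS, with overlap of all groups. Its log2 FC was -0.11 (95% interval -0.39 to 0.16) in QDBS and -0.13 (-0.40 to 0.15) in YDBS, and both turned positive, at 0.05 and 0.08, with each array centred on its median. Other alternative settings took it down to -0.43 in QDBS and -0.42 in YDBS. In each model its FDR was under 0.05 in at least 1 setting. Of 8 measured ligases that work with this pair or on Lys63 chains, 6 were called higher in both models and none lower. They were Chfr (log2 FC 1.99 and 2.09), a mitotic checkpoint ligase, Traf6 (1.58 and 1.60), the adaptor ligase of Toll-like and interleukin receptors, Hltf (1.54 and 1.63) and Shprh, which act on PCNA, Rnf4, and Znrf2.

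**Figure D2:**
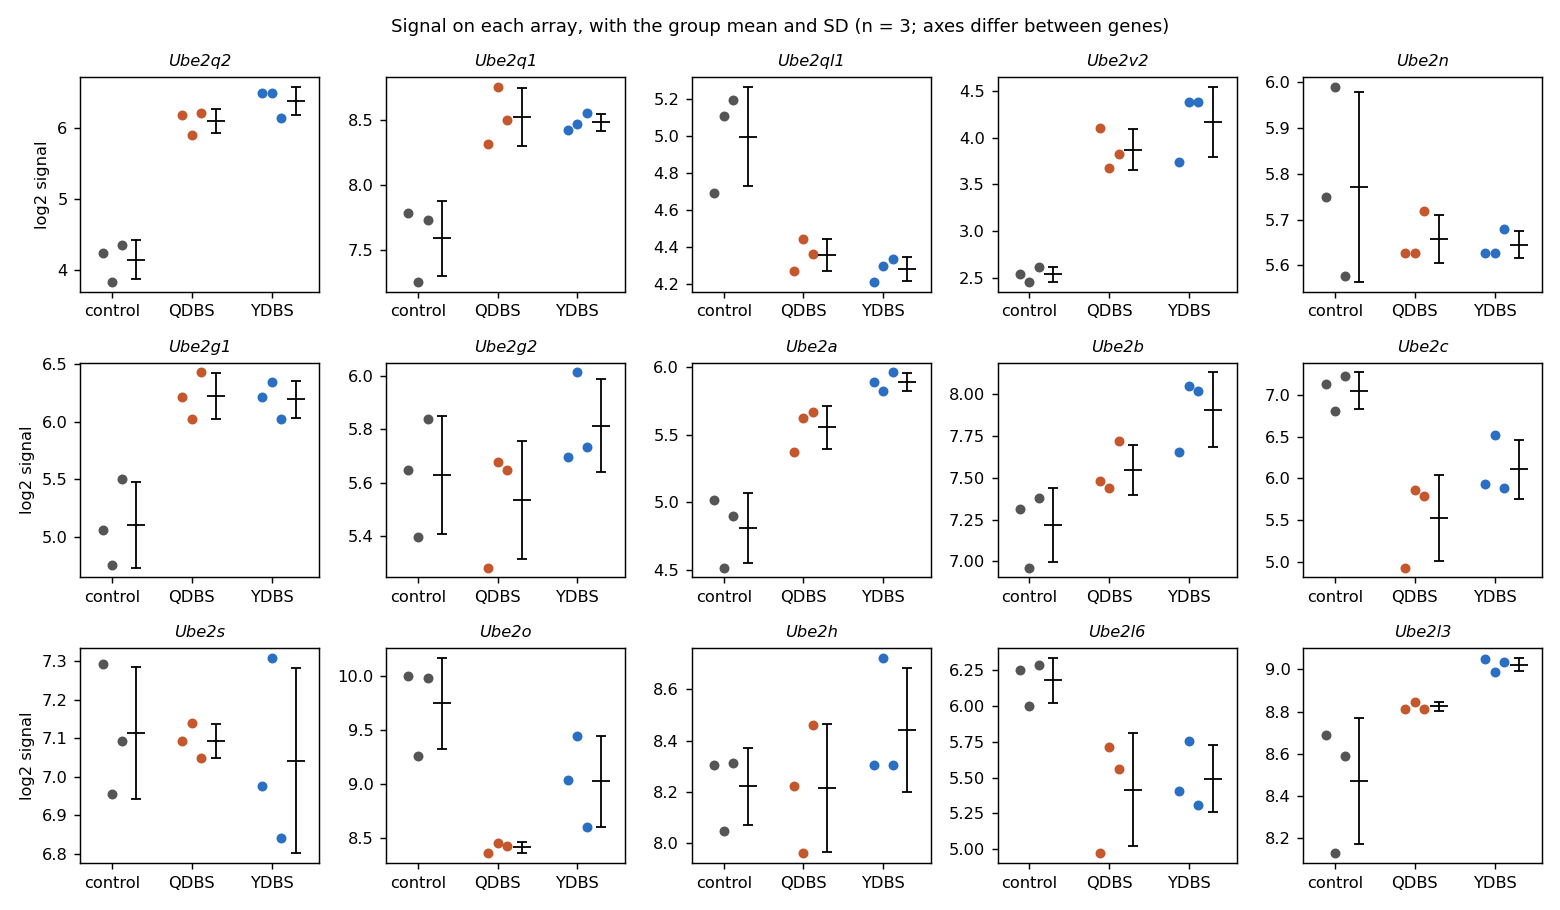
Log2 signal of 15 E2 genes on each array, with the group mean and SD (n = 3) at the right of each group. Axes differ between genes. Ube2q2, Ube2v2, Ube2g1 and Ube2a lie above control in both models without overlap, while Ube2n, Ube2g2, Ube2s and Ube2h overlap control.

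The E2 enzymes of protein degradation at the endoplasmic reticulum are Ube2g1, Ube2g2, Ube2j1 and Ube2j2. Ube2g1 builds Lys48 chains, the mark for the proteasome, and rose in both models. It was at 5.07, 4.76 and 5.50 in control, 6.21, 6.02 and 6.42 in QDBS and 6.21, 6.35 and 6.02 in YDBS. The lowest model array lay above the highest control array. The log2 FC was 1.11 ± 0.19 in QDBS (FC 2.16, FDR = 0.000991) and 1.08 ± 0.19 in YDBS (FC 2.12, FDR = 0.00107), and without control replicate 2 it was 0.94 and 0.91, under the fold criterion. The two-group test gave an FDR of 0.053 in QDBS. Ube2g2, which serves the ligase Syvn1, was at 5.65, 5.40 and 5.84 in control, 5.28, 5.68 and 5.65 in QDBS and 5.70, 6.01 and 5.73 in YDBS. Its groups overlapped control, with a log2 FC of -0.09 (95% interval -0.44 to 0.26) and 0.19 (-0.17 to 0.54), whose signs changed with the scaling. Ube2j1, anchored in the membrane of the reticulum, passed the FDR alone at 0.48 (FDR = 0.0133) and 0.67 (FDR = 0.00212), and Ube2j2 was not called. Of 7 ligases of this route, Rnf139 was called in both models (1.17 and 1.20) and Rnf185 in YDBS (1.05).

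Ube2a and Ube2b are the Rad6-type enzymes, which mark PCNA with Rad18 at stalled replication forks and histone H2B with Rnf20 and Rnf40. Ube2a was at 5.02, 4.51 and 4.89 in control, 5.38, 5.62 and 5.67 in QDBS and 5.89, 5.83 and 5.96 in YDBS. The 3 groups did not overlap, with control lowest and YDBS highest. It rose in YDBS, with a log2 FC of 1.08 ± 0.15 (FC 2.12, FDR = 0.000234), and reached 0.75 ± 0.15 (FDR = 0.00263) in QDBS. Without control replicate 2 the YDBS value was 0.94, under the fold criterion. The difference between the models, -0.34 (QDBS minus YDBS), had an FDR of 0.442 by limma. Ube2b was at 7.31, 6.96 and 7.38 in control, 7.48, 7.44 and 7.72 in QDBS and 7.65, 8.05 and 8.02 in YDBS. Both models lay above control without overlap, at 0.33 (FDR = 0.109) and 0.69 (FDR = 0.00534), and it was not called. Of 5 ligases that use these enzymes Rnf20 rose in both models (1.66 and 1.76) and Ubr1, an N-degron ligase, in QDBS (1.07), and Rad18 was at 0.67 and 0.85 without a call.

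Ube2e2 belongs to the E family, which resembles the Ube2d enzymes with an added N-terminal stretch. The gene has 2 transcript clusters with this symbol alone, and they moved in opposite directions. The cluster with the higher mean over 9 arrays (6.66 against 6.26), 17697453, was at 5.996, 5.42 and 6.14 in control, 7.18, 7.11 and 7.07 in QDBS and 6.86, 6.96 and 7.24 in YDBS. All its model arrays lay above control, with a log2 FC of 1.27 ± 0.18 (FDR = 0.000344) and 1.17 ± 0.18 (FDR = 0.000527). The other cluster (17697448) was at 6.77, 7.17 and 6.87 in control, 6.08, 5.29 and 5.84 in QDBS and 6.21, 6.26 and 5.89 in YDBS. All its model arrays lay below control, and with all clusters tested its log2 FC was -1.20 (FDR = 0.00202) and -0.82 (FDR = 0.0125). With the mean of both clusters the gene's log2 FC was 0.03 and 0.18 and was not called, so the rise holds for 1 cluster and not for the gene as a whole. On the control arrays the chosen cluster was the dimmer one (mean 5.85 against 6.94), and it became the brighter over 9 arrays through the model arrays, so the choice of cluster was not independent of the change. Without control replicate 2 its YDBS value was 0.95. Ube2e3, the measured relative, was at 5.24, 4.55 and 4.98 in control, 5.63, 5.73 and 5.65 in QDBS and 5.37, 5.42 and 4.74 in YDBS. QDBS lay above both other groups, at 0.74 (FDR = 0.0151) against control, while YDBS overlapped control, at 0.25.

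**Figure D3:**
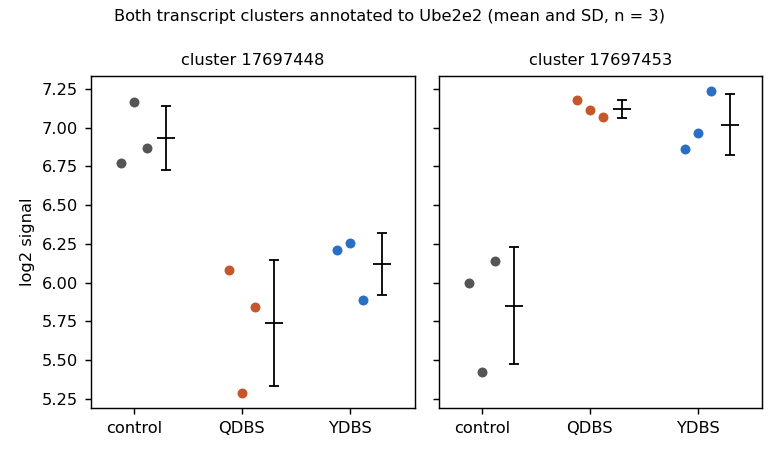
Log2 signal of both transcript clusters annotated to Ube2e2 on each array, with the group mean and SD (n = 3). One cluster lies below control in all 6 model arrays and the other above it, with log2 FC of -1.20 and 1.27 in QDBS.

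Ube2c and Ube2s serve the anaphase promoting complex, the ligase that ends mitosis. Ube2c starts the chain and Ube2s lengthens it with Lys11 links. Ube2c had the largest fall of the E2 genes in QDBS, from 7.12, 6.80 and 7.22 in control to 4.93, 5.86 and 5.79, and was at 5.93, 6.52 and 5.89 in YDBS. Both models lay below control without overlap, and the array QDBS 1 was the lowest of all. The log2 FC was -1.52 ± 0.25 in QDBS (FC -2.86, FDR = 0.00092), and the two-group test of the paper's methods gave an FDR of 0.0508 without a call. In YDBS it was -0.94 ± 0.25 (FDR = 0.0123), short of the fold criterion, which it passed at -1.06 without control replicate 2 and at -1.14 without YDBS replicate 2. Ube2s was at 7.29, 6.95 and 7.09 in control, 7.09, 7.14 and 7.05 in QDBS and 6.98, 7.31 and 6.84 in YDBS. The groups overlapped, with a log2 FC of -0.02 (95% interval -0.34 to 0.30) and -0.07 (-0.39 to 0.25). Of 16 subunits and activators of the complex 4 were called higher in QDBS and 3 in YDBS, and none lower. Cdc26, Cdc27 and Anapc4 were called higher in both models, Cdc26 at 1.71 and 1.74. Others had values below control without a call. By limma Cdc20 was at -0.42 (FDR = 0.0547) and -0.50 (FDR = 0.0264), and Anapc11 at -0.33 (FDR = 0.0569) and -0.35 (FDR = 0.0427). Of 18 other genes of dividing cells, 3 were called higher in both models (Mki67, Pcna and Rrm2) and none lower, and their mean level was 4.22 to 4.42 in control, 4.52 to 4.97 in QDBS and 4.58 to 4.85 in YDBS. Ube2c was therefore below control on arrays where this list was above it.

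Ube2o and Ube2h are the E2 enzymes of red cell maturation. Ube2o, a very large E2 that also acts as its own ligase, clears ribosomal proteins from mouse reticulocytes, and Ube2h serves the CTLH ligase during erythroid maturation. Ube2o was at 9.999, 9.26 and 9.98 in control, 8.36, 8.46 and 8.43 in QDBS and 9.04, 9.44 and 8.60 in YDBS. QDBS lay below both other groups, and YDBS overlapped control. It fell in QDBS, with a log2 FC of -1.33 ± 0.23 (FC -2.51, FDR = 0.00122), and was at -0.72 ± 0.23 (FDR = 0.0271) in YDBS. Ube2h was at 8.30, 8.05 and 8.31 in control, 8.22, 7.96 and 8.46 in QDBS and 8.30, 8.72 and 8.30 in YDBS, so all groups overlapped. Its log2 FC was -0.01 (95% interval -0.37 to 0.36) and 0.22 (-0.14 to 0.58). Of 9 measured CTLH subunits Armc8, Mkln1 and Wdr26 were called higher in both models and none lower.

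Erythroid markers were read beside Ube2o. The mean level of 16 erythroid genes was 6.82 to 7.41 in control, 6.53 to 6.74 in QDBS and 6.98 to 7.74 in YDBS. In QDBS 3 of the 16 fell, the haemoglobin chaperone Ahsp (-1.38) and the erythroid transcription factors Gata1 (-1.41) and Klf1 (-1.08), and in YDBS none was called. The order of the arrays within a group was shared in part. Control replicate 2 was the lowest control array for both Ube2o (9.26) and the list (6.82), and YDBS replicate 2 the highest YDBS array for both (9.44 and 7.74). Low values on control replicate 2 were not particular to erythroid genes. It was also the lowest control array for lists such as leukocytes (8.95), T cells (7.19) and hepatocytes (5.51), though not for platelets (10.75) or natural killer cells (5.90). In YDBS the lowest array was replicate 3 for Ube2o (8.60) and replicate 1 for the list (6.98), and in QDBS the highest was replicate 2 for Ube2o (8.46) and replicate 3 for the list (6.74). The part of red cell precursors in the Ube2o value was not tested.

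**Figure D4:**
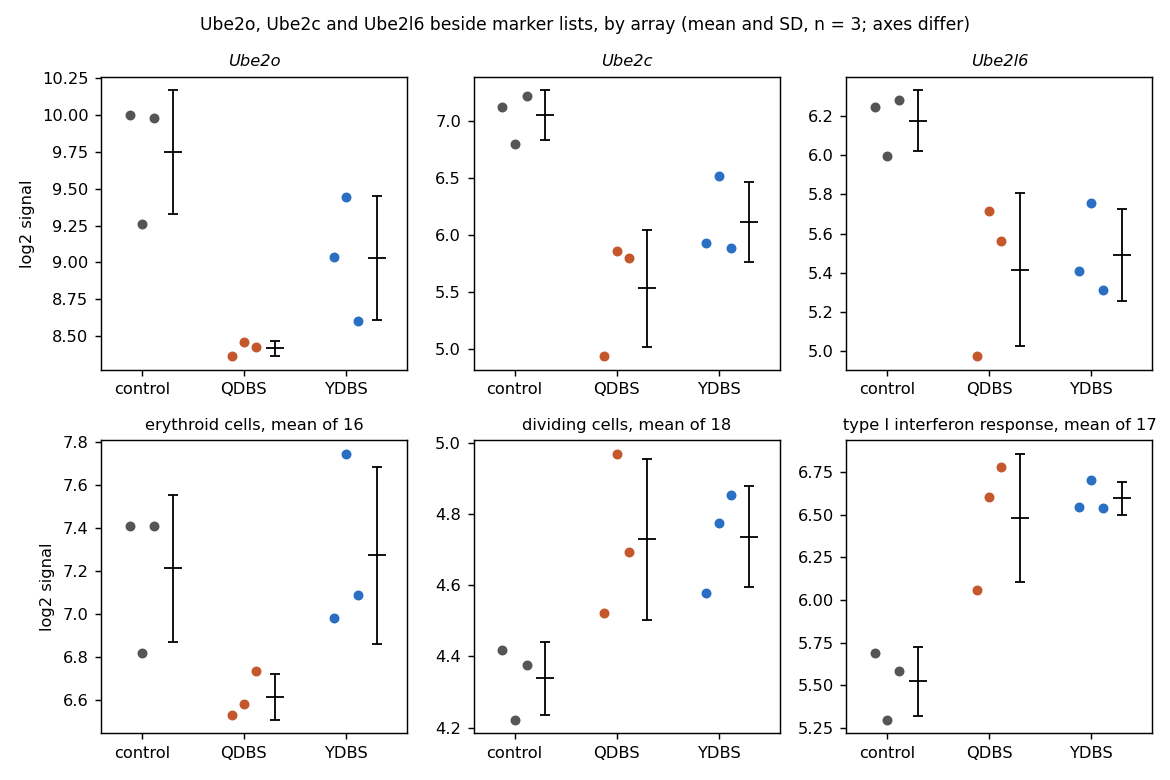
Log2 signal of Ube2o, Ube2c and Ube2l6 on each array (upper row) and the mean level of the erythroid, dividing cell and type I interferon lists (lower row), with the group mean and SD (n = 3). Axes differ between panels. Ube2o and the erythroid list are both lowest in QDBS, while Ube2c and Ube2l6 lie below control on arrays where the list beneath them lies above it.

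Ube2l6 carries ISG15, a ubiquitin relative that interferon induces, and Ube2l3 carries ubiquitin for HECT and RBR ligases. Ube2l6 was at 6.25, 5.997 and 6.28 in control, 4.97, 5.72 and 5.56 in QDBS and 5.41, 5.76 and 5.31 in YDBS. All 6 model arrays lay below control, with a log2 FC of -0.76 ± 0.20 (FDR = 0.0106) and -0.68 ± 0.20 (FDR = 0.0162), past the FDR but short of the fold criterion. The interferon list stood the other way, with 7 of 17 genes called higher in QDBS, 8 in YDBS and none lower, and mean levels of 5.30 to 5.69 in control, 6.06 to 6.78 in QDBS and 6.54 to 6.71 in YDBS. Herc6, a ligase for ISG15 in mouse, rose in both models (1.37 and 1.53), and Isg15 itself rose in YDBS (1.24) and was at 0.59 in QDBS (FDR = 0.0701). Ube2l3 had control arrays from 8.13 to 8.69, QDBS from 8.81 to 8.85 and YDBS from 8.99 to 9.05. Its log2 FC was 0.36 (FDR = 0.0673) and 0.56 (FDR = 0.0105). Among 10 RBR ligases Arih1 (1.46 and 1.59) and Rnf19a (1.15 and 1.22) were called higher in both models.

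The remaining E2 genes were not called in either model. Ube2k, which builds Lys48 chains, was at a log2 FC of 0.65 (FDR = 0.0276) and 0.60 (FDR = 0.0364), and Ube2z, which is charged by the E1 enzyme Uba6 alone, at 0.58 (FDR = 0.00613) and 0.52 (FDR = 0.00978). Ube2t, the enzyme of the Fanconi anaemia pathway, was at -0.29 (FDR = 0.11) and -0.55 (FDR = 0.0091). Ube2d2b, a copy of Ube2d2, was at -0.34 (FDR = 0.0329) and -0.32 (FDR = 0.0395) at a mean level of 3.07, and whether its probes also match transcripts of other Ube2d genes was not tested. Under the alternative settings given below, Ube2k came down to 0.30 and 0.22, Ube2z to 0.23 and 0.15, and Ube2d2b to -0.05 and -0.02. Ube2t came to -0.24 in YDBS. None of these genes kept an FDR under 0.05 in every setting. The other 7 genes (Ube2d1, Ube2d4l1, Ube2f, Ube2j2, Ube2m, Ube2q2l and Ube2r2) had an FDR over 0.05 in both models. Among them Ube2f and Ube2m load NEDD8 onto cullins, Ube2d1 works with many ligases, and Ube2r2 is a relative of Cdc34 that serves cullin ligases.

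Between the models no E2 gene was called by limma. Of all genes limma called 0% higher in QDBS than in YDBS and 0.33% lower. The two-group test of the paper's methods called 0 of all genes in either direction here, so it tells nothing about the E2 genes in particular. By the FDR alone none passed either (0.011% and 0.446% of all genes). At an unadjusted p under 0.05, limma gave 1 E2 gene higher and 4 lower in QDBS than in YDBS. The share of all genes at this limit was not computed, so no direction is read from these counts. The arrays of QDBS lay above those of YDBS for 2 E2 genes (9.79% of all genes) and below for 7 (8.65%). The smallest p was that of Ube2o, whose QDBS level was below YDBS by a log2 FC of -0.61 (95% interval -1.12 to -0.10, FDR = 0.336 by limma). Ube2e3 was higher in QDBS by 0.49 (0.04 to 0.95, FDR = 0.41 by limma), and Ube2c was lower by -0.58 (-1.14 to -0.03, FDR = 0.436 by limma). Ube2c and Ube2o were thus called in QDBS and not in YDBS, but the test of the difference itself did not pass the FDR for either. For genes called in both models the differences were -0.28 (Ube2q2, 95% interval -0.64 to 0.09), -0.30 (Ube2v2, -0.70 to 0.10), 0.10 (Ube2e2, -0.30 to 0.50) and 0.03 (Ube2g1, -0.38 to 0.44).

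Other genes of the ubiquitin pathway were taken from lists by role. The lists were chosen with earlier results of these data known, so the shares below describe the lists and are not a test of the pathway. Of 109 measured genes 30 rose in QDBS (27.5%, where 9.62% of all genes did) and 29 in YDBS (26.6%, where 10.4% did), and none fell in either. Their median log2 FC was 0.48 and 0.54, where the medians over all genes were -0.15 and -0.16. All genes include many dim ones. With the dimmest 40% left out, 1714 genes were called higher in QDBS (1747 before) and 1848 in YDBS (1892 before). The share called higher is thus larger among brighter genes, and the medians over the genes left were 0.08 and 0.07. The pathway genes were not compared with genes of like level. At the top of the cascade, Uba6, the E1 enzyme that charges Ube2z, rose by a log2 FC of 2.15 and 2.41. Uba3, the catalytic subunit of the NEDD8 E1, rose by 2.05 and 2.29, and Uba2, that of the SUMO E1, was called in QDBS (1.01). The NEDD8 carriers Ube2f and Ube2m were not called, while the NEDD8 ligases Dcun1d1 (1.22 and 1.52) and Dcun1d5 (1.36 and 1.36) were. Of 8 SUMO ligases 3 rose in QDBS and 4 in YDBS, with the nuclear pore protein Ranbp2 at 2.66 and 2.56. Among 8 E2 enzymes and E2-fold proteins of other names, Atg3, the E2 that attaches lipid to LC3 in autophagy, rose in both models (1.86 and 2.57), and Birc6, a giant E2 that restrains cell death, in QDBS (1.18). Of 9 genes for ubiquitin and its relatives none was called in QDBS, and Isg15 and Atg12 rose in YDBS. In the Fanconi list of 11 genes, the ligase complex that uses Ube2t and its targets, Fancl was called in QDBS (1.04) and no other gene in either model.

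**Figure D5:**
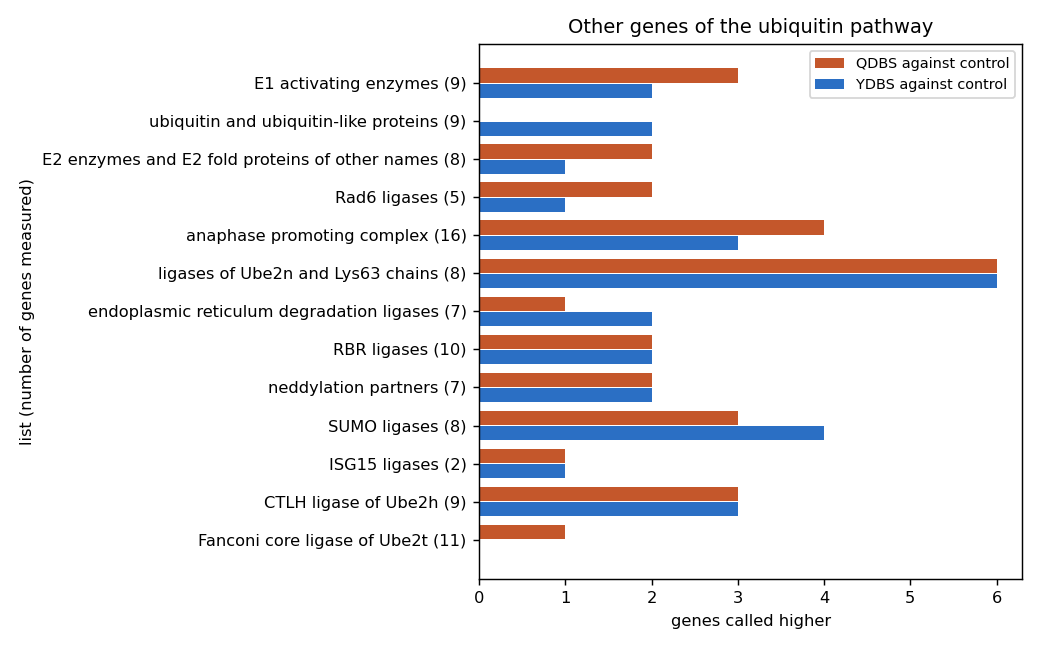
Number of genes called higher in QDBS and in YDBS against control in each list of other ubiquitin pathway genes, with the number measured in parentheses. The ligases of Ube2n and Lys63 chains have the highest count, 6 of 8 in both models, and no gene of these lists was called lower.

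The labelled tissue was checked against markers. Leukocyte genes were bright in every array, with a mean of 5 genes of 8.95 to 9.48 in control and 10.35 to 10.60 in the models, and the 16 erythroid genes averaged 6.53 or more on all. Hepatocyte genes, with a mean of 5.51 to 6.29 in control and 3.54 to 3.68 in the models, were called lower for 10 of 11 genes in both comparisons. Of 8 platelet genes 6 fell in QDBS and 1 in YDBS, and of 8 natural killer cell genes 4 rose in each model. QDBS had 4 of 6 B cell genes and 4 of 12 T cell genes called higher, and YDBS had 2 and 1. Of 13 neutrophil genes 3 fell in QDBS and none rose, 6 rose and 1 fell in YDBS, and 2 were called lower in QDBS than in YDBS. Array medians were 4.15 to 4.21 in control and 3.94 to 4.05 in the models. The part of these shifts in the values of the E2 genes was not tested.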

How the data were processed

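Blood RNA of 9 rats (3 control, 3 QDBS, 3 YDBS), labelled with a 3' IVT kit, was hybridised to Affymetrix Rat Gene 2.0 ST arrays. The authors made the deposited log2 values with Robust Multi-chip Average (RMA) in Affymetrix Expression Console 1.1, per the labels, a method that takes off background, equalises quantiles between arrays and combines the probes of a cluster. The genome build behind the probe annotation is not given in the sources used here. The 30347 clusters were used without further normalization. Clusters with several symbols (575) were left out, since their probes name no single gene, and the brightest cluster stood for a gene. The fits used limma 3.58.1 (R 4.3.3), 1 fit of 9 arrays with a mean per group, checked on simulated data, with the 2 criteria of the paper. FC is signed, with falls negative. Replicates are separate rats, so p-values measure the spread between rats, and precision is limited by their small number. The quantile step of RMA makes values relative across arrays, so a shift shared by most genes can be reduced.

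Values by array are given for called genes, the 10 with the largest absolute log2 FC against control, the 3 with the smallest p between models, the lowest and highest gene, and relatives of called genes. The members and the lists were chosen with earlier results of these data known. Alternatives were other scalings, filters, variance models, array weights, a replicate block, the two-group test and each array left out.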

Additional observations from a re-analysis of the deposited data

How the results depend on the processing

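The number of arrays limits every value, and the dimmest members, such as Ube2v2, lie near the floor of the array. Across 22 alternatives, 9 of which left out 1 array each, 1055 of 1137 values of single genes kept their direction and their side of the criteria, 33 gained a call, 25 lost one and 24 changed sign. Part of this tally was fixed in advance. The variance models, the replicate block, the two-group test and leaving out an array of the group not compared cannot change a log2 FC. A gene without a call also counts as kept when it no longer passes the FDR. Ube2q2 in both models and Ube2o in QDBS met both criteria under all 22, and Ube2v2 in both models under the 21 that tested it. In QDBS, 2 genes were called higher after quantile normalization and after cyclic loess, and 10 higher and 5 lower by the FDR with no minimum fold. The two-group test of the paper's methods called 3 higher and 1 lower, since Ube2g1 had an FDR of 0.053 and Ube2c of 0.0508. The median of the E2 genes relative to all genes was 0.26 and moved to 0.0544 with loess and 0.0911 with quantile normalization. In YDBS, 2 genes were called higher with centring on the 75th percentile, quantile normalization, array weights and without control replicate 2, 3 with loess and 11 by the FDR alone. In these 4 scalings and weightings, and without control replicate 2 or YDBS replicate 2, 1 gene (Ube2c) was called lower, and 6 were lower by the FDR alone. Calls over all genes moved under these settings too, in YDBS from 1892 higher and 167 lower to 1655 and 140 with array weights. The relative median of 0.38 moved to 0.0529 with quantile normalization and 0.0667 with loess, and between the models that of -0.05 moved to -0.16 without the dimmest 40% of genes. With each array left out in turn, QDBS had 3 to 5 genes higher and 2 lower with a relative median of 0.11 to 0.38, and YDBS had 2 to 5 higher and 0 to 1 lower with 0.26 to 0.44. Over all genes the median log2 FC of -0.15 and -0.16 was 0.01 and 0.04 with median centring, -0.38 and -0.37 with the 75th percentile, -0.07 with quantile normalization in both and 0.00 with loess. The cause of these changes was not tested. Changes of sign concerned log2 FC near 0. With median centring Ube2g2 (0.0720), Ube2h (0.16), Ube2n (0.0511) and Ube2s (0.15) turned in QDBS, Ube2n (0.0760) and Ube2s (0.13) in YDBS and Ube2g1 (-0.00966) between the models. Array weights turned Ube2h (0.0045) and Ube2n (0.0093) in QDBS, and in YDBS the 75th percentile turned Ube2g2 (-0.0195) and quantile normalization Ube2g2 (-0.0879) and Ube2h (-0.0198). Ube2e2 between the models was -0.14 with the mean of its clusters. Leaving out single arrays gave, in QDBS, -0.21 to 0.0344 for Ube2g2, -0.13 to 0.12 for Ube2h and -0.10 to 0.0701 for Ube2s, in YDBS -0.20 to 0.0293 for Ube2s, and between the models -0.0735 to 0.13 for Ube2g1. The labels do not pair rats by replicate number. Once group means were taken off, arrays that share a number in different groups correlated from -0.170 to 0.196 and arrays of different numbers from -0.130 to 0.217. These ranges show no sign of pairing, but with 3 arrays per group they cannot exclude shared handling of a number. With the replicate number as a block, 4 genes were higher and 2 lower in QDBS, 5 higher and 0 lower in YDBS and 0 between the models, and no call of a named gene changed.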

Other observations

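Several E2 genes had exactly the same value on more than 1 array, which the deposited table shows for 10 of the 29 members (34.5%) and for 41.6% of all genes. Ube2n was at 5.63 on 4 of the 9 arrays.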
